A study of Canis lupus familiaris with 12 samples.

Results

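The effect of degenerative mitral valve disease (DMVD) on gene expression was compared between the mitral valve and the left ventricle of the dog. For each gene the log2 ratio of the DMVD to the control value was taken in each tissue, and the ventricle's ratio was subtracted from the valve's. A difference above 0 means that the DMVD to control ratio was higher in the valve, and one below 0 that it was higher in the ventricle. Genes entered if both deposited tables marked them as tested and all 4 group values were above 0, which held for 13099 of the 24223 genes listed. A further 234 genes tested in both tissues had a group listed at 0.

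DMVD is a slow thickening of the valve leaflets in which matrix rich in proteoglycans builds up and the fibrous layer loses its order, so that blood leaks back into the left atrium. Interstitial cells of the leaflet that take on smooth muscle traits are a known feature of the diseased valve. The left ventricle is heart muscle, which depends on mitochondrial respiration and carries the added volume load of the leak. The leaflet joins the atrial wall at its base and the ventricle through its cords, so a valve sample can hold atrial or ventricular muscle beside interstitial and endothelial cells.

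The data were 12 RNA sequencing libraries, taken from 4 dogs with DMVD and 4 without. For the left ventricle the DMVD group (n = 2) was a Jack Russell Terrier aged 5 and a Pomeranian aged 9 years, set against 4 control dogs (n = 4), a Beagle aged 8 and 3 Hound mixes aged 3 years. For the mitral valve the DMVD group (n = 3) was that Pomeranian with Beagles aged 17 and 16 years, set against control dogs (n = 3), namely the Beagle aged 8 and Hound mixes aged 3 years. Both tissues were available from 3 control dogs and 1 DMVD dog, so the tissues compared share dogs. Diagnosis cannot be told apart from breed and age in either tissue, and the valve's diseased dogs were older than the ventricle's. The tables hold 1 value per group in FPKM, the fragment count scaled by the length of the gene and the size of the library. No value per dog could therefore be given, the depth per library is unknown, and each error below (± SE) is the one implied by the authors' test statistic. P-values of the difference are normal approximations that rest on that error, and no exact test over dogs could be made from group values. The tables were normalised separately, so a level set across tissues is a description only.

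The labelled tissues were first set against their defining markers. TNNT2, the cardiac troponin T, was at 4000 FPKM in DMVD and 7051 FPKM in control ventricle, and 1846 FPKM in DMVD and 4523 FPKM in control valve. COL1A1, the main collagen chain of fibrous tissue, was at 5.61 FPKM in DMVD and 4.82 FPKM in control ventricle, and 201 FPKM in DMVD and 127 FPKM in control valve, and the small matrix proteoglycan LUM at 56.9 FPKM in DMVD and 73.6 FPKM in control ventricle, and 620.3 FPKM in DMVD and 575 FPKM in control valve. Fibrous matrix genes were thus high in the valve tables, which also held heart muscle transcripts in both groups. The atrial light chain MYL4 was at 106 FPKM in DMVD and 33.5 FPKM in control ventricle, and 1631 FPKM in DMVD and 1792 FPKM in control valve, and the atrial hormone gene NPPA at 47.96 FPKM in DMVD and 12.4 FPKM in control ventricle, and 2878 FPKM in DMVD and 2984 FPKM in control valve. Both valve groups were high in these atrial genes and close to each other. CNN1, MATN1, TYR and DCT, markers of contractile smooth muscle, cartilage and pigment cells, were at or near 0 in all 4 groups. Other markers of smooth muscle and cartilage were present in the valve, with ACTA2 at 74.8 FPKM in DMVD and 31.6 FPKM in control, MYH11 at 16.4 and 7.13 FPKM, SOX9 at 31.5 and 30.7 FPKM, and the cartilage proteoglycan ACAN at 24.9 and 41.5 FPKM. MYH7 was listed at 0 in the control ventricle and so was not joined.

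Most genes showed no resolvable difference between the tissues. The median difference was 0.05, with quartiles of -0.37 and 0.49, and 84.7% of genes lay within 1 log2 unit of 0. The DMVD value was higher in both tissues for 4088 genes (31.2%) and lower in both for 4005 (30.6%), so that 61.8% pointed the same way. It was higher in the ventricle and lower in the valve for 2068 genes, and the reverse for 2938. The median SE of the difference was 0.79, and the smallest difference that passed the test had a size of 3.17 log2 units. A difference was called at a Benjamini-Hochberg adjusted p under 0.05 over all joined genes. The disease effect differed by that test for 14 genes (0.107% of those tested), 9 lower in the valve (0.0687%) and 5 higher (0.0382%). At an unadjusted p under 0.05 there were 222 higher (1.69%) and 126 lower (0.962%). The count rests on how the errors of the tissues are combined: it was 150 with an assumed correlation of 0.5 between them, since dogs are shared, and 0 with the SEs added linearly. With 1 FPKM added to every value, and the SEs scaled down with it, the count was 12, of which 10 were among the 14. The difference changed sign for 309 genes (2.36%), none of them past an unadjusted 0.05 before the addition.

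**Figure D1:**
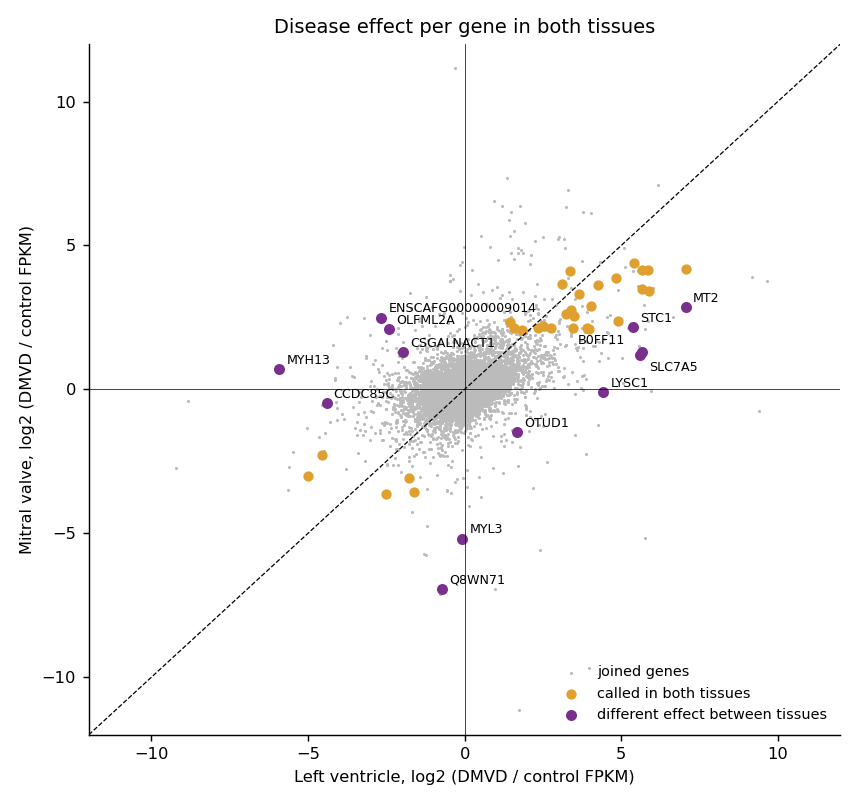
Log2 ratio of DMVD to control FPKM in the left ventricle (horizontal axis) and the mitral valve (vertical axis) for the 13099 joined genes, with the dashed line marking equal effects; 1 gene lies outside the axes. The 13 genes named on the plot, whose effect differed, lie far off the line, and the 32 genes called in both tissues lie in the upper right and lower left corners.

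Among the 14 genes, 3 had a called disease effect in the valve alone, 9 in the ventricle alone and 2 in both. Values are given for 13 of them. The genes without a usable symbol or with a mean under 5 FPKM fall outside the rule for named genes and are described because the count is small. They were chosen after their values were seen.

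The valve falls included the muscle gene MYL3. MYL3, the essential light chain of ventricular and slow muscle myosin (chr20:41941315-41947260 on CanFam3.1), was at 4451 FPKM in DMVD and 4676 FPKM in control ventricle, and 36.6 FPKM in DMVD and 1335 FPKM in control valve. Only the DMVD valve group was low. Its log2 ratio was -0.07 ± 0.67 in the ventricle and -5.19 ± 0.68 in the valve, a difference of -5.12 ± 0.96 (from the authors' statistics, adjusted p = 0.000369). The gene listed as Q8WN71_CANFA (chr26:8623641-8632895), which the tables name only by a protein database entry, was at 3754 FPKM in DMVD and 6224 FPKM in control ventricle, and 15.9 FPKM in DMVD and 1943 FPKM in control valve. It had the same pattern, with log2 ratios of -0.73 ± 0.80 and -6.93 ± 0.97 and a difference of -6.20 ± 1.26 (adjusted p = 0.00235 from the authors' statistics). In both genes the ventricle groups lay within the size of the error of each other.

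A larger set of genes rose in the ventricle and did not do so to the same degree in the valve. MT2, a metallothionein that binds zinc and copper (chr2:59607926-59608825), was at 771 FPKM in DMVD and 5.75 FPKM in control ventricle, and 531 FPKM in DMVD and 73.3 FPKM in control valve. DMVD groups were high in both tissues, while the control valve stood well above the control ventricle. The log2 ratios were 7.07 ± 0.61 and 2.86 ± 0.68, both called, and the difference was -4.21 ± 0.91 (adjusted p = 0.00756 from the authors' statistics). Its neighbour in function MT1 was at 42.9 FPKM in DMVD and 1.78 FPKM in control ventricle, and 104 FPKM in DMVD and 26.9 FPKM in control valve, and its difference of -2.64 ± 0.83 did not pass. Metallothionein genes are close copies of each other, so reads may be split between them. STC1, a secreted glycoprotein that acts on calcium and phosphate handling (chr25:33615413-33628344), was at 92.8 FPKM in DMVD and 2.22 FPKM in control ventricle, and 14.9 FPKM in DMVD and 3.35 FPKM in control valve. The DMVD ventricle stood highest by far, with called log2 ratios of 5.39 ± 0.51 in the ventricle and 2.15 ± 0.55 in the valve. The difference was -3.24 ± 0.75 (adjusted p = 0.0228 from the authors' statistics).

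LYSC1_CANFA, an entry name of the lysozyme family of antibacterial enzymes (chr27:5861071-5863823), was at 83.7 FPKM in DMVD and 3.89 FPKM in control ventricle, and 4.83 FPKM in DMVD and 5.14 FPKM in control valve. One group, the DMVD ventricle, was high and the other 3 were close together, and the difference was -4.52 ± 0.92 (adjusted p = 0.00235 from the authors' statistics). SLC7A5, an importer of large neutral amino acids (chr5:65312985-65346118), was at 4.35 FPKM in DMVD and 0.0889 FPKM in control ventricle, and 2.56 FPKM in DMVD and 1.105 FPKM in control valve. The control ventricle was the low group, and the difference of -4.40 ± 0.99 (adjusted p = 0.0135 from the authors' statistics) shrank to -1.54 with 1 FPKM added and was no longer called. B0FF11_CANFA (chr24:32504712-32505833), known here only by its entry name, was at 103 FPKM in DMVD and 2.005 FPKM in control ventricle, and 657 FPKM in DMVD and 265 FPKM in control valve. It was abundant in both valve groups, and the log2 ratio was 5.68 ± 0.93 in the ventricle against 1.31 ± 0.45 in the valve, a difference of -4.37 ± 1.03 (adjusted p = 0.0283 from the authors' statistics). OTUD1, a deubiquitinating enzyme (chr2:9835332-9836838), was at 39.01 FPKM in DMVD and 12.2 FPKM in control ventricle, and 9.75 FPKM in DMVD and 27.5 FPKM in control valve. The groups were in opposite order in the tissues, with log2 ratios of 1.68 ± 0.46, called, and -1.50 ± 0.60, not called, and a difference of -3.17 ± 0.76 (adjusted p = 0.029 from the authors' statistics).

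All 5 genes with a difference above 0 fell in the ventricle and had no called change in the valve. OLFML2A, an extracellular matrix protein of the olfactomedin family (chr9:58189770-58221763), was at 0.379 FPKM in DMVD and 2.03 FPKM in control ventricle, and 13.7 FPKM in DMVD and 3.22 FPKM in control valve. DMVD was low in the ventricle and high in the valve, with log2 ratios of -2.42 ± 0.53 and 2.08 ± 0.57, and the difference was 4.51 ± 0.78 (adjusted p = 4.32e-05 from the authors' statistics). CSGALNACT1, an enzyme that starts chondroitin sulfate chains on proteoglycans (chr16:22218137-22306813), was at 0.553 FPKM in DMVD and 2.16 FPKM in control ventricle, and 8.74 FPKM in DMVD and 3.55 FPKM in control valve. It had the same opposite order, with -1.96 ± 0.52 and 1.30 ± 0.50 and a difference of 3.27 ± 0.72 (adjusted p = 0.00964 from the authors' statistics). With 1 FPKM added, both remained called, at 2.93 and 2.12.

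MYH13, a myosin heavy chain known from eye muscle (chr5:34617979-34669349), was at 0.051 FPKM in DMVD and 3.08 FPKM in control ventricle, and 2.56 FPKM in DMVD and 1.58 FPKM in control valve. The DMVD ventricle was near 0, and the difference was 6.61 ± 1.05 (adjusted p = 4.65e-06 from the authors' statistics). MYH13 belongs to a family of similar myosin genes, so its reads may be shared with them. CCDC85C, a coiled-coil protein of cell junctions (chr8:67929455-68004928), was at 0.234 FPKM in DMVD and 4.98 FPKM in control ventricle, and 4.57 FPKM in DMVD and 6.397 FPKM in control valve. The difference was 3.93 ± 0.94 (adjusted p = 0.0305 from the authors' statistics). The unnamed gene ENSCAFG00000009014 was at 0.111 FPKM in DMVD and 0.699 FPKM in control ventricle, and 1.18 FPKM in DMVD and 0.2104 FPKM in control valve, with a difference of 5.15 ± 1.23 (adjusted p = 0.0295 from the authors' statistics). With 1 FPKM added these 3 shrank to 2.42, 1.87 and 1.46, and none was called.

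**Figure D2:**
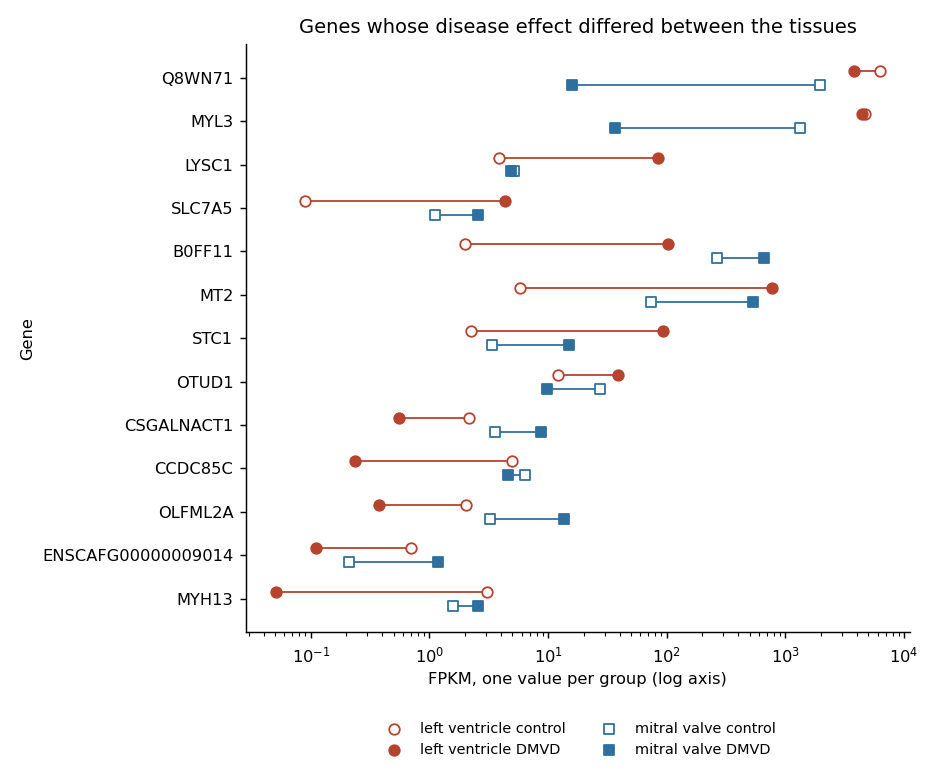
FPKM on a log axis for 13 genes whose disease effect differed, 1 value per group, with circles for the left ventricle, squares for the mitral valve, filled marks for DMVD and open marks for control, ordered by difference. MYL3 and Q8WN71 separate in the valve alone, whereas the lower rows have their low value in the DMVD ventricle.

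Just outside the threshold, BCL2A1, an inhibitor of cell death typical of activated white blood cells, was at 16.9 FPKM in DMVD and 0.522 FPKM in control ventricle, and 3.51 FPKM in DMVD and 1.64 FPKM in control valve. Its difference was -3.92 ± 0.98 (adjusted p = 0.0548 from the authors' statistics). In the other direction ITGA8, an integrin of contractile mesenchymal cells, was at 0.663 FPKM in DMVD and 1.08 FPKM in control ventricle, and 19.9 FPKM in DMVD and 3.35 FPKM in control valve. Its difference was 3.28 ± 0.92 (adjusted p = 0.176 from the authors' statistics), not past the test, with a called rise in the valve. With 1 FPKM added, ITGA8 was called at 2.59 (adjusted p = 0.0362 from the authors' statistics), as was the chemokine gene IL8 at -3.12 (adjusted p = 0.0415).

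Within tissues, the authors' p-values adjusted here called 407 of the joined genes in the ventricle, 256 higher in DMVD (1.95%) and 151 lower (1.15%). In the valve 53 were called, 38 higher (0.29%) and 15 lower (0.115%). Both tissues called 32 genes (0.244%), all in the same direction, 27 higher and 5 lower. These are 7.86% of the ventricle's calls and 60.4% of the valve's. No gene was called in opposite directions in the authors' test with Benjamini-Hochberg adjustment; 10 genes were at an unadjusted p under 0.05 in both tissues with opposite signs. Of the 375 genes called in the ventricle and not in the valve, 9 had a difference that passed, and for 366 the effects were not shown to differ. Of the 21 called in the valve alone, the difference passed for 3.

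**Figure D3:**
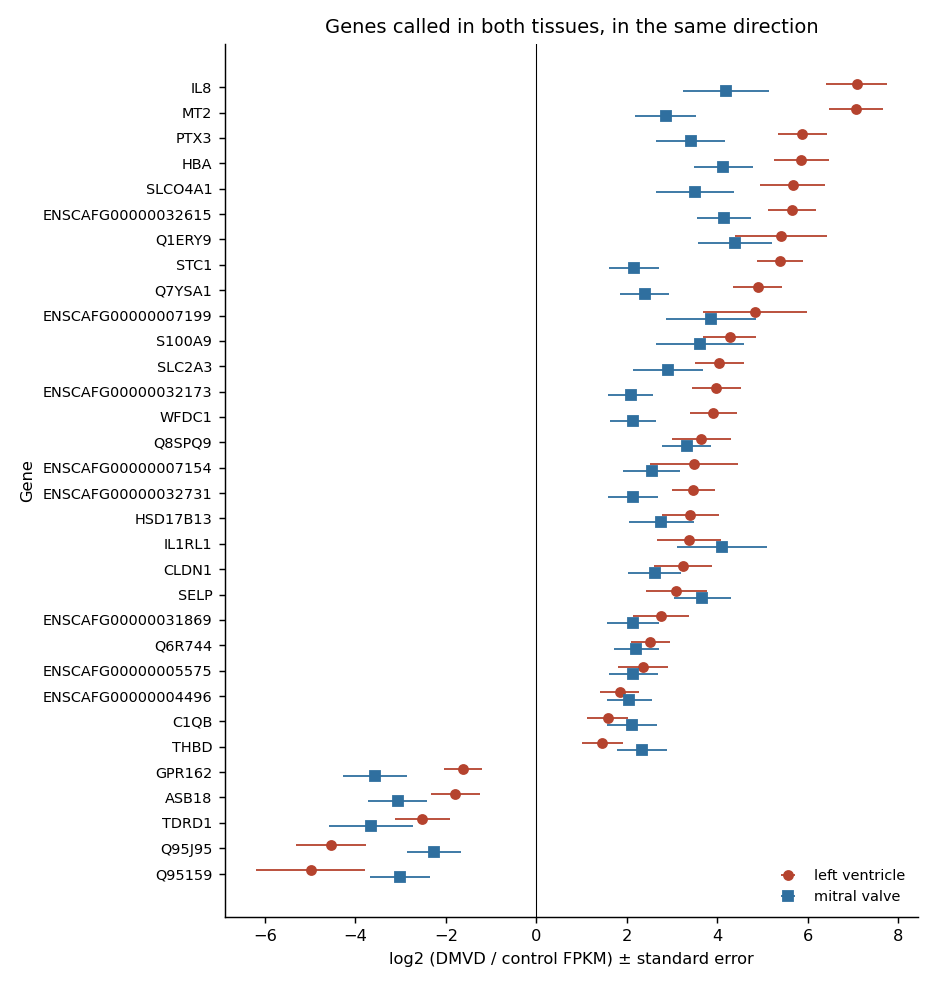
Log2 ratio of DMVD to control FPKM with its standard error for the 32 genes called in both tissues, circles for the left ventricle and squares for the mitral valve, ordered by the ventricle's ratio. The 27 rises and 5 falls keep their side of 0 in both tissues, and the upper rows have the ventricle farther from 0.

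The rises shared by both tissues included genes of blood, acute inflammation and the vessel wall. HBA, the alpha chain of haemoglobin, was at 3559 FPKM in DMVD and 61.3 FPKM in control ventricle, and 604 FPKM in DMVD and 34.4 FPKM in control valve. It rose by 5.86 ± 0.62 in the ventricle and 4.13 ± 0.65 in the valve on the log2 scale, and its difference of -1.72 ± 0.89 did not pass. IL8, the chemokine that draws in neutrophils, was at 58.9 FPKM in DMVD and 0.435 FPKM in control ventricle, and 5.12 FPKM in DMVD and 0.2797 FPKM in control valve. DMVD groups were high and controls under 1 FPKM, with log2 ratios of 7.08 ± 0.67 and 4.19 ± 0.95. S100A9, a calcium-binding protein of neutrophils and monocytes, was at 24.3 FPKM in DMVD and 1.26 FPKM in control ventricle, and 3.35 FPKM in DMVD and 0.273 FPKM in control valve, with ratios of 4.27 ± 0.58 and 3.62 ± 0.97 and a difference of -0.66 ± 1.13 (-1.71 with 1 FPKM added).

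PTX3, a secreted pattern-recognition protein of the acute response, was at 69.8 FPKM in DMVD and 1.19 FPKM in control ventricle, and 44.5 FPKM in DMVD and 4.19 FPKM in control valve. It shares its listed locus with another gene, which makes its value less certain. The log2 ratios were 5.88 ± 0.53 and 3.41 ± 0.76. SELP, the P-selectin of activated endothelium and platelets, was at 1.48 FPKM in DMVD and 0.173 FPKM in control ventricle, and 12.8 FPKM in DMVD and 1.01 FPKM in control valve, with ratios of 3.09 ± 0.67 and 3.67 ± 0.62. IL1RL1, the receptor of interleukin 33, was at 1.84 FPKM in DMVD and 0.177 FPKM in control ventricle, and 2.61 FPKM in DMVD and 0.152 FPKM in control valve, with ratios of 3.38 and 4.10 that differed by 0.72 ± 1.23 (0.38 with 1 FPKM added), not past the test. Both control groups were below both DMVD groups in these 3 genes.

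THBD, the endothelial thrombin receptor thrombomodulin, was at 13.95 FPKM in DMVD and 5.08 FPKM in control ventricle, and 20.9 FPKM in DMVD and 4.14 FPKM in control valve, and C1QB, a chain of the first complement component made by macrophages, at 15.1 FPKM in DMVD and 5.09 FPKM in control ventricle, and 45.4 FPKM in DMVD and 10.4 FPKM in control valve. In THBD, C1QB, SELP and IL1RL1 the valve's ratio was the larger one, which held for 5 of the 27 rises, against 22 with the larger ratio in the ventricle. The difference passed only for MT2 and STC1 among the 32. SLC2A3, a glucose transporter whose listed locus is shared, was at 76.01 FPKM in DMVD and 4.61 FPKM in control ventricle, and 43.5 FPKM in DMVD and 5.81 FPKM in control valve. SLCO4A1, a transporter of organic anions, was at 6.59 FPKM in DMVD and 0.1298 FPKM in control ventricle, and 3.37 FPKM in DMVD and 0.298 FPKM in control valve. WFDC1, a secreted protease inhibitor-like protein, was at 30.7 FPKM in DMVD and 2.04 FPKM in control ventricle, and 78.8 FPKM in DMVD and 17.9 FPKM in control valve, CLDN1, a tight junction protein, at 2.47 FPKM in DMVD and 0.262 FPKM in control ventricle, and 7.87 FPKM in DMVD and 1.28 FPKM in control valve, and HSD17B13, a lipid droplet enzyme, at 7.36 FPKM in DMVD and 0.698 FPKM in control ventricle, and 8.73 FPKM in DMVD and 1.29 FPKM in control valve. All of these rose in both tissues. SLCO4A1, CLDN1 and HSD17B13, and below TDRD1 and the genes given by entry name, fall outside the rule for named genes and were chosen after their values were seen.

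The shared falls were fewer. GPR162, an orphan receptor, was at 12.2 FPKM in DMVD and 37.6 FPKM in control ventricle, and 0.755 FPKM in DMVD and 8.97 FPKM in control valve, with ratios of -1.62 ± 0.42 and -3.57 ± 0.71. ASB18, a muscle-expressed member of a ubiquitin ligase adaptor family, was at 6.18 FPKM in DMVD and 21.4 FPKM in control ventricle, and 1.44 FPKM in DMVD and 12.1 FPKM in control valve, with ratios of -1.79 ± 0.54 and -3.07 ± 0.66. TDRD1, a Tudor domain protein known from germ cells, was at 0.252 FPKM in DMVD and 1.45 FPKM in control ventricle, and 0.0667 FPKM in DMVD and 0.836 FPKM in control valve and stayed low throughout. The other 2 falls were Q95159_CANFA and Q95J95_CANFA, named only by entry. Q95159_CANFA was at 0.0387 FPKM in DMVD and 1.23 FPKM in control ventricle, and 1.55 FPKM in DMVD and 12.5 FPKM in control valve. Q95J95_CANFA was at 0.495 FPKM in DMVD and 11.5 FPKM in control ventricle, and 10.9 FPKM in DMVD and 52.5 FPKM in control valve.

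HBA and S100A9, both among these shared rises, are also part of the summed blood and white cell markers, so the sums repeat them. The summed level of the 6 joined erythroid genes was 3648 FPKM in DMVD against 159 FPKM in control ventricle, and 651 against 115 FPKM in the valve. HBA made up most of the DMVD sums, and the rest of the erythroid sum was lower in DMVD in both tissues. The list's median ratio was 1.09 in the ventricle and -0.27 in the valve, where 3 of the 6 were higher in DMVD and 3 lower. The 7 joined neutrophil and calgranulin genes summed to 395 against 15.3 FPKM in the ventricle and 48.2 against 11.4 FPKM in the valve. All 7 were higher in DMVD in both tissues, with median ratios of 4.27 and 1.86. Of these, 6 were called in the ventricle and 1 in the valve, against 1.95% and 0.29% of all joined genes called higher. In bulk tissue, more cells of a type and more RNA per cell cannot be told apart. The part that blood content has in these rises was not tested.

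Functions were described with 47 gene lists, through their counts and medians set beside all joined genes, whose median log2 ratios were -0.04 in the ventricle, 0.04 in the valve and 0.05 for the difference. Of all joined genes, 46.7% had a difference below 0 and 53.3% one above 0. The DMVD value was higher for 47.0% and lower for 53.0% of them in the ventricle, and higher for 53.6% and lower for 46.4% in the valve. Over all joined genes, 1.95% were called higher and 1.15% lower in the ventricle, against 0.29% and 0.115% in the valve. Few or no valve calls in a list therefore do not set that list apart. The plot of list medians shows that the sarcomere, ventricular identity, oxidative phosphorylation and cytosolic ribosomal lists lay below 0 in the difference, and the antigen presentation, interferon, collagen and elastic fibre lists above.

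**Figure D4:**
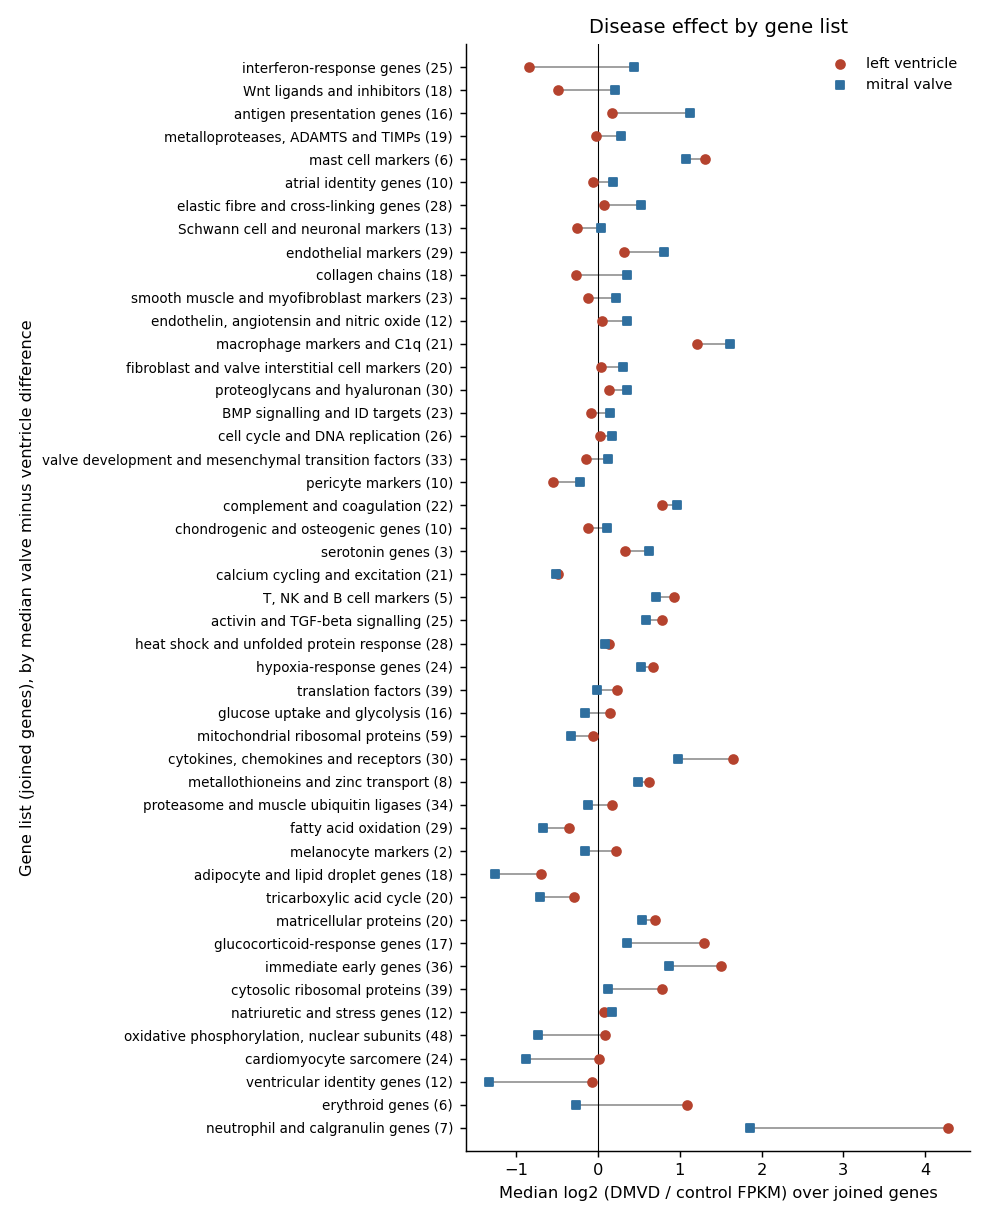
Median log2 ratio of DMVD to control FPKM over the joined genes of each of the 47 lists, circles for the left ventricle and squares for the mitral valve, with the number of joined genes in parentheses and lists ordered by their median difference. The oxidative phosphorylation list sits at 0.08 in the ventricle and -0.73 in the valve, and the interferon list at -0.84 and 0.44.

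Genes of the contractile apparatus were lower in the diseased valve and near level in the ventricle. Of 24 joined sarcomere genes, 23 had a lower DMVD value in the valve against 11 in the ventricle, and 22 had a difference below 0, with a median of -0.84. One passed, MYL3, and the other 23 did not. The list's summed level was 45636 FPKM in DMVD and 48615 FPKM in control ventricle, and 17910 and 32461 FPKM in the valve. SMPX, a small protein of the striated muscle costamere, was at 2325 FPKM in DMVD and 1813 FPKM in control ventricle, and 358 FPKM in DMVD and 808 FPKM in control valve, a difference of -1.53 ± 0.65. MYOZ2, which tethers calcineurin at the Z-disc, was at 1423 FPKM in DMVD and 1241 FPKM in control ventricle, and 412 FPKM in DMVD and 801 FPKM in control valve.

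Of 12 joined ventricular identity genes, 9 had a lower DMVD value in the valve and 10 a difference below 0, with medians of -0.07 in the ventricle, -1.33 in the valve and -1.11 for the difference. MYL3 is also on this list and was its only gene whose difference passed. LRRC39, a myosin-binding protein of the sarcomere's M-band, was at 464 FPKM in DMVD and 486 FPKM in control ventricle, and 12.9 FPKM in DMVD and 110.0 FPKM in control valve. It fell in the valve by the authors' test, and its difference of -3.02 ± 0.92 did not pass over all genes. The ventricular transcription factors IRX4, IRX3 and IRX5 were at 0.0135, 0.115 and 1.03 FPKM in DMVD valve against 1.86, 1.54 and 4.06 FPKM in control valve. In the ventricle they were at 3.18, 3.54 and 3.17 FPKM in DMVD against 5.46, 2.47 and 5.38 FPKM in control. Their differences of -6.32 ± 2.79 (-0.87 with 1 FPKM added), -4.27 ± 1.25 (-1.58 with 1 FPKM added) and -1.22 ± 1.06 (-0.71 with 1 FPKM added) did not pass.

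Of 10 joined atrial identity genes, 6 had a higher DMVD value in the valve, with a median of 0.19 there and -0.06 in the ventricle, and none was called in the valve. Their sum in the valve was 5782 FPKM in DMVD and 5550 FPKM in control, and the ventricular list summed to 5863 and 11201 FPKM. Each sum rests mostly on a few genes. NPPA and MYL4 made up most of the atrial sums, and their valve ratios had SEs of 1.93 and 1.67. PLN made up most of the ventricular sums in the valve, with a ratio of -1.11 ± 0.49 there. MYL3 and NPPB followed in control valve, at 1335 and 1120 FPKM, and moved oppositely. Their valve ratios were -5.19 ± 0.68 and 0.66 ± 1.06. NPPA rose in the ventricle by 1.95 ± 0.53, whereas its valve ratio was -0.05 ± 1.93, with an error too wide to separate the tissues (a difference of -2.003 ± 2.004). NPPB, a heart stress hormone gene, was at 31.9 FPKM in DMVD and 10.3 FPKM in control ventricle, and 1776 FPKM in DMVD and 1120 FPKM in control valve, and neither tissue was called. Though on the ventricular list, NPPB was higher in both valve groups than in either ventricle group, as were NPPA and MYL4. The amount and kind of muscle cut with each leaflet was not given in the labels, and its part in the muscle differences was not tested.

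Ion channel genes were split. KCNJ2, the inward rectifier that sets the resting potential, was at 5.28 FPKM in DMVD and 12.1 FPKM in control ventricle, and 0.162 FPKM in DMVD and 4.34 FPKM in control valve, a called fall in the valve alone, and its difference of -3.54 ± 1.31 (-1.13 with 1 FPKM added) did not pass. GJA1, the main gap junction protein of working heart muscle, was at 42.1 FPKM in DMVD and 164 FPKM in control ventricle, and 46.8 FPKM in DMVD and 76.8 FPKM in control valve, a called fall in the ventricle alone, with a difference of 1.25 ± 0.65 that did not pass. PLN, the brake on the calcium pump of the sarcoplasmic reticulum, was at 18413 FPKM in DMVD and 19863 FPKM in control ventricle, and 3791 FPKM in DMVD and 8204 FPKM in control valve. Over the 21 joined calcium and excitation genes the median was -0.49 in the ventricle and -0.52 in the valve, and the difference lay below 0 for 10.

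Nuclear genes of oxidative phosphorylation lay on 1 side without exception. All 48 joined genes had a difference below 0, from -1.25 to -0.15, with a median of -0.77, and none passed singly in the difference or in either tissue. All 48 had a lower DMVD value in the valve (median -0.73), against 18 in the ventricle (median 0.08). COX6A2, the heart and muscle form of a cytochrome oxidase subunit, was at 5064 FPKM in DMVD and 3961 FPKM in control ventricle, and 1199 FPKM in DMVD and 2231 FPKM in control valve, a difference of -1.25 ± 0.73. NDUFS4, an accessory subunit of complex I, was at 535 FPKM in DMVD and 442 FPKM in control ventricle, and 125 FPKM in DMVD and 211 FPKM in control valve, a difference of -1.03 ± 0.65. The DMVD valve was the lowest group for both genes.

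Fuel pathways feeding respiration lay on the same side. Of 20 joined tricarboxylic acid cycle genes 18 had a difference below 0 (median -0.50), with SUCLA2, a succinyl-CoA ligase subunit, at 320.3 FPKM in DMVD and 272 FPKM in control ventricle, and 57.9 FPKM in DMVD and 117 FPKM in control valve. Of 29 joined fatty acid oxidation genes 20 had a difference below 0 (median -0.36). FABP3, the heart's fatty acid carrier, was at 3187 FPKM in DMVD and 3480 FPKM in control ventricle, and 557 FPKM in DMVD and 1386 FPKM in control valve, and DECR1, which handles unsaturated fatty acids, at 44.8 FPKM in DMVD and 25.8 FPKM in control ventricle, and 11.1 FPKM in DMVD and 18.3 FPKM in control valve, with a difference of -1.52 ± 0.62 that did not pass over all genes. ACSL1, which activates fatty acids, was at 33.5 FPKM in DMVD and 99.8 FPKM in control ventricle, and 22.8 FPKM in DMVD and 58.4 FPKM in control valve, and MLYCD, which breaks down malonyl-CoA, at 25.7 FPKM in DMVD and 68.7 FPKM in control ventricle, and 17.1 FPKM in DMVD and 33.6 FPKM in control valve. Both fell in the ventricle by the authors' test and were also lower, without a call, in the valve. Summed sarcomere genes moved with these lists in the valve, and their part was not tested.

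Ribosomal protein genes were also on this side, with the offset in the ventricle. All 39 joined genes were higher in the DMVD ventricle (median 0.79, none called), whereas the valve's median was 0.13, and 38 had a difference below 0 (median -0.68). RPS15A, of the small subunit, was at 1815 FPKM in DMVD and 826 FPKM in control ventricle, and 1047 FPKM in DMVD and 1097 FPKM in control valve, and FAU, a ubiquitin-like fusion of a small subunit protein, at 1144 FPKM in DMVD and 561 FPKM in control ventricle, and 893 FPKM in DMVD and 902 FPKM in control valve. In both the control ventricle was the low group. Mitochondrial ribosomal proteins had 43 of 59 differences below 0 with a median of -0.27, and the proteasome list 28 of 34 with -0.34. No gene of these 2 lists was called in either tissue or in the difference.

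Genes switched on quickly by stress and growth signals were mostly higher in DMVD in both tissues, and no difference between the tissues passed. Of 36 joined immediate early genes, 33 had a higher DMVD value in the ventricle and 33 in the valve. Calls of a rise numbered 15 in the ventricle and 0 in the valve, against 1.95% and 0.29% of all joined genes. The difference lay below 0 for 30 (medians 1.51 in the ventricle, 0.87 in the valve and -0.65 for the difference). EGR1, a zinc finger transcription factor, was at 25.03 FPKM in DMVD and 4.75 FPKM in control ventricle, and 36.2 FPKM in DMVD and 35.1 FPKM in control valve. The control valve was as high as the DMVD valve, and the difference was -2.35 ± 0.80. FOSB, a subunit of the AP-1 factor, was at 1.44 FPKM in DMVD and 0.507 FPKM in control ventricle, and 1.35 FPKM in DMVD and 3.56 FPKM in control valve, in opposite order in the tissues, with a difference of -2.90 ± 1.01 (-1.65 with 1 FPKM added). MAFF, a small Maf factor of the stress response, was at 29.1 FPKM in DMVD and 2.504 FPKM in control ventricle, and 19.1 FPKM in DMVD and 6.44 FPKM in control valve, and DUSP5, a phosphatase that shuts off ERK signalling, at 2.47 FPKM in DMVD and 0.135 FPKM in control ventricle, and 1.51 FPKM in DMVD and 0.468 FPKM in control valve. FOSL2 and GADD45B had closer ratios, 3.01 ± 0.57 and 2.36 ± 0.66 for FOSL2 and 2.68 ± 0.46 and 2.05 ± 0.61 for GADD45B.

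Glucocorticoid and hypoxia targets also had more calls in the ventricle, as did all joined genes (1.95% against 0.29% called higher). Of 17 joined glucocorticoid-response genes 7 rose in the ventricle and 1 in the valve, with 15 differences below 0 (median -0.59); the DMVD value was higher for 15 in the ventricle and 15 in the valve, and MT2 alone passed in the difference. NFKBIA, the inhibitor of NF-kappaB, was at 99.6 FPKM in DMVD and 23.4 FPKM in control ventricle, and 62.2 FPKM in DMVD and 32.6 FPKM in control valve. Of 24 joined hypoxia-response genes 9 rose in the ventricle and 2 in the valve, with 14 differences below 0 (median -0.23); the DMVD value was higher for 17 in the ventricle and 20 in the valve, and STC1 alone passed in the difference. HK2, an inducible hexokinase, was at 3.72 FPKM in DMVD and 0.646 FPKM in control ventricle, and 1.72 FPKM in DMVD and 1.6 FPKM in control valve, with 2.53 ± 0.56 in the ventricle, 0.11 ± 0.61 in the valve and a difference of -2.42 ± 0.83 (-1.45 with 1 FPKM added) that did not pass. LOX, which cross-links collagen and elastin, was at 4.86 FPKM in DMVD and 0.867 FPKM in control ventricle, and 29.6 FPKM in DMVD and 15.5 FPKM in control valve, with a difference of -1.56 ± 0.69 (-0.76 with 1 FPKM added).

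Inflammatory mediators had medians above 0 in both tissues, with more calls in the ventricle. Of 30 joined cytokine, chemokine and receptor genes 12 rose in the ventricle and 4 in the valve, against 1.95% and 0.29% of all joined genes. The medians were 1.65 and 0.98, or 0.94 and 0.86 with 1 FPKM added. CCL2, which draws in monocytes, was at 87.97 FPKM in DMVD and 4.498 FPKM in control ventricle, and 87.8 FPKM in DMVD and 27.95 FPKM in control valve. The DMVD groups were level between tissues and the control ventricle lowest, with a difference of -2.64 ± 0.72 that did not pass. OSMR, the oncostatin M receptor, was at 16.2 FPKM in DMVD and 2.99 FPKM in control ventricle, and 29.6 FPKM in DMVD and 15.5 FPKM in control valve. CXCL10, an interferon-induced chemokine, lay on the other side, at 3.75 FPKM in DMVD and 2.196 FPKM in control ventricle, and 4.6 FPKM in DMVD and 1.16 FPKM in control valve, with a difference of 1.22 ± 1.05 (0.80 with 1 FPKM added).

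Macrophage genes were higher in DMVD in both tissues. Of 21 joined macrophage markers and C1q genes, 20 had a higher DMVD value in the ventricle and all 21 in the valve, with medians of 1.21 and 1.62 and a median difference of 0.36. Called rises numbered 4 in the ventricle and 1 in the valve, against 1.95% and 0.29% of all joined genes. STAB1, a scavenger receptor, was at 1.91 FPKM in DMVD and 2.49 FPKM in control ventricle, and 5.54 FPKM in DMVD and 1.78 FPKM in control valve, a difference of 2.02 ± 0.69, and VSIG4, a complement receptor of resident macrophages, at 3.18 FPKM in DMVD and 2.403 FPKM in control ventricle, and 13.9 FPKM in DMVD and 3.904 FPKM in control valve. SPP1, osteopontin, lay the other way, at 80.7 FPKM in DMVD and 16.02 FPKM in control ventricle, and 139 FPKM in DMVD and 122 FPKM in control valve, with a called rise in the ventricle alone and a difference of -2.14 ± 0.83. FCGR1A, a high-affinity antibody receptor, was at 8.37 FPKM in DMVD and 1.17 FPKM in control ventricle, and 6.35 FPKM in DMVD and 2.48 FPKM in control valve, and LYVE1, a hyaluronan receptor of lymphatic vessels and resident macrophages, at 18.3 FPKM in DMVD and 4.32 FPKM in control ventricle, and 23.5 FPKM in DMVD and 6.82 FPKM in control valve.

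Antigen presentation genes had a difference above 0 in all 16 joined members, from 0.07 to 1.90 with a median of 0.78, and none passed singly. All 16 were higher in the DMVD valve (median 1.12), against 10 in the ventricle (median 0.17). CD74, the invariant chain that guides class II molecules, was at 43.4 FPKM in DMVD and 25.3 FPKM in control ventricle, and 257 FPKM in DMVD and 60.4 FPKM in control valve, and DLA-DRA, the dog class II alpha chain, at 58.9 FPKM in DMVD and 40.4 FPKM in control ventricle, and 266 FPKM in DMVD and 67.9 FPKM in control valve. The DMVD valve was the highest group for both. CIITA, the master activator of class II genes, was at 1.19 FPKM in DMVD and 2.03 FPKM in control ventricle, and 1.44 FPKM in DMVD and 0.654 FPKM in control valve, in opposite order in the tissues. The class I genes DLA-64 and DLA-12 were higher in DMVD in both tissues, with ratios of 0.97 ± 0.44 and 1.47 ± 0.63, and 0.84 ± 0.45 and 1.48 ± 0.70; they are near-identical copies and so uncertain. The summed macrophage list moved the same way in the valve, from 366 to 769.7 FPKM, and from 99.4 to 283 FPKM in the ventricle; its part was not tested.

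Interferon-response genes had the highest median difference of the 47 lists, 1.16. With 1 FPKM added it was 0.72, just under the 0.73 of the antigen presentation list. Of 25 joined genes 22 had a difference above 0, and 15 were lower in the DMVD ventricle and higher in the DMVD valve. None passed in the difference; 5 were at an unadjusted p under 0.05, all above 0. IFIT2, an antiviral protein that binds RNA, was at 0.209 FPKM in DMVD and 1.12 FPKM in control ventricle, and 2.08 FPKM in DMVD and 1.49 FPKM in control valve. It fell in the ventricle by the authors' test and was 0.48 ± 0.62 in the valve, a difference of 2.90 ± 0.90 (1.12 with 1 FPKM added). IFIT3 was at 0.626 FPKM in DMVD and 1.98 FPKM in control ventricle, and 6.48 FPKM in DMVD and 4.45 FPKM in control valve, IFIT1 at 0.452 FPKM in DMVD and 0.963 FPKM in control ventricle, and 2.89 FPKM in DMVD and 1.803 FPKM in control valve and IRF1, a transcription factor of the pathway, at 1.63 FPKM in DMVD and 2.92 FPKM in control ventricle, and 4.54 FPKM in DMVD and 2.91 FPKM in control valve. In these 4 genes the DMVD ventricle was the lowest group and the DMVD valve the highest. ISG20, an exonuclease, was the farthest exception, at 0.891 FPKM in DMVD and 0.124 FPKM in control ventricle, and 0.769 FPKM in DMVD and 0.279 FPKM in control valve, with an SE of 1.92 on its difference of -1.38.

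**Figure D5:**
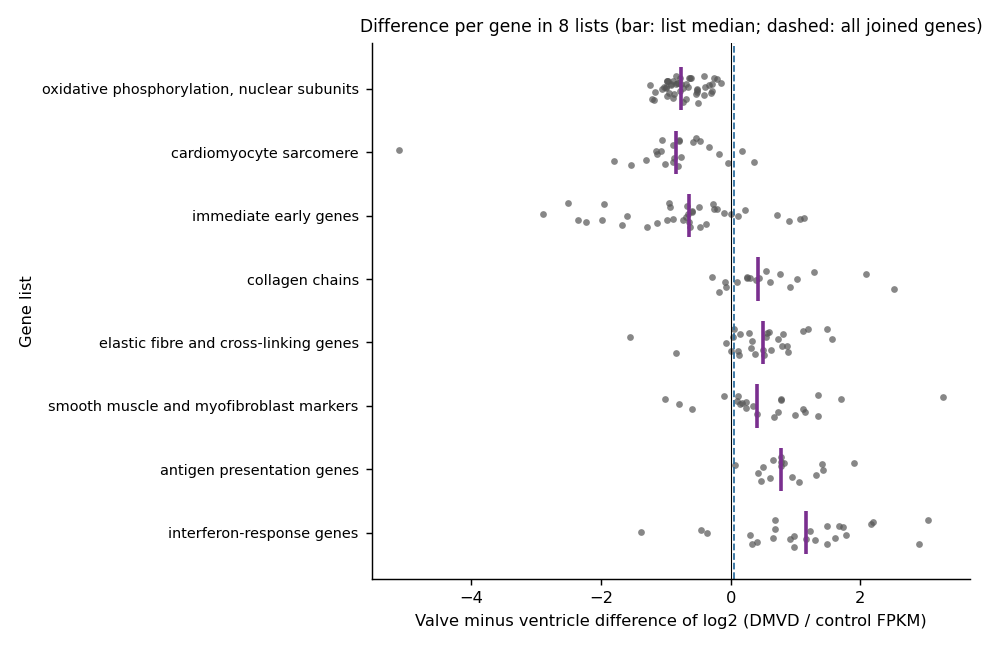
Difference of the log2 ratios, valve minus ventricle, for each joined gene of 8 lists, with the list median as a bar and the median of all joined genes as a dashed line; the vertical scatter within a list has no meaning. All 48 oxidative phosphorylation genes lie below 0 and all 16 antigen presentation genes above it.

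Structural matrix genes leaned to the valve. Of 18 joined collagen chains 14 had a difference above 0 (medians -0.27, 0.36 and 0.42), and none passed in the difference. The valve called none, against 0.29% called higher over all joined genes. The ventricle called 1, a fall, against 1.15% called lower over all joined genes. COL14A1, a collagen that decorates fibrils, was at 1.39 FPKM in DMVD and 3.71 FPKM in control ventricle, and 21.3 FPKM in DMVD and 13.4 FPKM in control valve, a called fall in the ventricle and a difference of 2.08 ± 0.70. COL1A1 had 0.22 ± 0.45 and 0.66 ± 1.06. Of 28 joined elastic fibre and cross-linking genes 25 had a difference above 0 and 26 a higher DMVD value in the valve (medians 0.08, 0.53 and 0.50). The only member at an unadjusted p under 0.05 in the difference test lay the other way. This was LOX, with a called rise of 2.49 ± 0.48 in the ventricle and a difference of -1.56 ± 0.69 (-0.76 with 1 FPKM added). ELN, elastin itself, was at 11.5 FPKM in DMVD and 5.34 FPKM in control ventricle, and 60.1 FPKM in DMVD and 25.3 FPKM in control valve, with near-equal ratios of 1.11 ± 0.46 and 1.25 ± 0.48. FBN2, a microfibril protein of developing tissue, was at 1.98 FPKM in DMVD and 8.18 FPKM in control ventricle, and 6.25 FPKM in DMVD and 11.95 FPKM in control valve, lower in DMVD in both and called in the ventricle alone. LTBP4, which stores latent TGF-beta in the matrix, was at 11.5 FPKM in DMVD and 23.02 FPKM in control ventricle, and 259.7 FPKM in DMVD and 176 FPKM in control valve, in opposite order in the tissues.

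Proteoglycan and hyaluronan genes held members on both sides. Of 30 joined genes, 26 had a higher DMVD value in the valve and 16 in the ventricle. In the ventricle 4 rose and 1 fell, against 1.95% and 1.15% of all joined genes. The valve called none, against 0.29% called higher over all joined genes. VCAN, the large proteoglycan versican, was at 10.7 FPKM in DMVD and 2.17 FPKM in control ventricle, and 138 FPKM in DMVD and 74.3 FPKM in control valve. It rose in the ventricle by 2.29 ± 0.45, and the valve, far higher in both groups, had 0.89 ± 1.14. HAS2 and HAS1, hyaluronan synthases, were at 1.17 FPKM in DMVD and 0.438 FPKM in control ventricle, and 3.64 FPKM in DMVD and 3.04 FPKM in control valve, and at 4.04 FPKM in DMVD and 0.108 FPKM in control ventricle, and 1.88 FPKM in DMVD and 0.429 FPKM in control valve; HAS2 shares its listed locus with another gene. SDC1, the cell surface proteoglycan syndecan 1, was at 0.308 FPKM in DMVD and 1.34 FPKM in control ventricle, and 8.81 FPKM in DMVD and 6.73 FPKM in control valve, a called fall in the ventricle and a difference of 2.51 ± 0.80 (1.18 with 1 FPKM added) that did not pass.

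Matricellular proteins, which signal between cells and matrix, held members on both sides. Of 20 joined genes, 14 had a higher DMVD value in the ventricle and 15 in the valve. Calls of a rise numbered 7 in the ventricle and 0 in the valve, against 1.95% and 0.29% of all joined genes. The difference lay below 0 for 12 and above 0 for 8 (median -0.56, or -0.47 with 1 FPKM added). Median ratios were 0.70 in the ventricle and 0.54 in the valve, or 0.48 and 0.53 with 1 FPKM added. THBS1, an activator of latent TGF-beta, was at 32.04 FPKM in DMVD and 1.803 FPKM in control ventricle, and 48.5 FPKM in DMVD and 16.9 FPKM in control valve, a difference of -2.63 ± 0.73 (adjusted p = 0.159 from the authors' statistics). TNC, tenascin C, was at 1.68 FPKM in DMVD and 0.1404 FPKM in control ventricle, and 6.67 FPKM in DMVD and 5.39 FPKM in control valve, and POSTN, periostin, at 5.63 FPKM in DMVD and 0.453 FPKM in control ventricle, and 685 FPKM in DMVD and 245 FPKM in control valve, with differences of -3.27 ± 1.20 (-0.97 with 1 FPKM added) and -2.15 ± 2.70 (-0.71 with 1 FPKM added). In all 3 genes the control ventricle was the lowest group. SMOC1, a calcium-binding matrix protein that modulates BMP signals, was in opposite order, at 1.398 FPKM in DMVD and 3.03 FPKM in control ventricle, and 24.1 FPKM in DMVD and 8.51 FPKM in control valve, with a difference of 2.62 ± 0.71 (adjusted p = 0.136 from the authors' statistics). Among proteases, ADAMTS9 was at 15.5 FPKM in DMVD and 1.12 FPKM in control ventricle, and 3.01 FPKM in DMVD and 1.12 FPKM in control valve, a called rise in the ventricle, and ADAMTS5 at 2.01 FPKM in DMVD and 1.11 FPKM in control ventricle, and 1.83 FPKM in DMVD and 0.604 FPKM in control valve, not called; both cut proteoglycans. Of 19 joined metalloprotease genes 13 had a difference above 0.

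Growth factor pathways were mixed. INHBB, an activin subunit, was at 48.9 FPKM in DMVD and 2.09 FPKM in control ventricle, and 12.5 FPKM in DMVD and 2.198 FPKM in control valve, with 4.55 ± 0.61 in the ventricle, called, and 2.51 ± 0.81 in the valve, not called. INHBA, the other activin subunit on the list, was at 0.849 FPKM in DMVD and 0.757 FPKM in control ventricle, and 15.5 FPKM in DMVD and 8.47 FPKM in control valve, with 0.17 ± 0.65 and 0.87 ± 0.50. Of 25 joined activin and TGF-beta genes, 18 had a higher DMVD value in the ventricle and 23 in the valve. In the ventricle 6 rose and 1 fell, against 1.95% and 1.15% of all joined genes. The valve called none, against 0.29% called higher over all joined genes. The median difference was -0.07 (0.15 with 1 FPKM added). BMP4, a bone morphogenetic protein of valve and bone, was at 3.01 FPKM in DMVD and 4.63 FPKM in control ventricle, and 28.3 FPKM in DMVD and 14.9 FPKM in control valve, with a difference of 1.55 ± 0.69. SMAD6, an inhibitor of BMP signals, was higher in DMVD in both, at 13.3 FPKM in DMVD and 4.54 FPKM in control ventricle, and 25.7 FPKM in DMVD and 11.7 FPKM in control valve.

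Wnt genes had 14 of 18 differences above 0, with medians of -0.49 in the ventricle, 0.21 in the valve and 0.97 for the difference (0.53 with 1 FPKM added). SFRP1 and FRZB, secreted Wnt inhibitors, were at 3.63 FPKM in DMVD and 8.74 FPKM in control ventricle, and 82.3 FPKM in DMVD and 38.3 FPKM in control valve, and at 1.04 FPKM in DMVD and 3.51 FPKM in control ventricle, and 77.1 FPKM in DMVD and 70.1 FPKM in control valve. The receptor FZD8 was at 1.52 FPKM in DMVD and 8.16 FPKM in control ventricle, and 4.33 FPKM in DMVD and 4.08 FPKM in control valve, a called fall in the ventricle alone. DKK2, a secreted inhibitor, lay the other way, at 25.02 FPKM in DMVD and 3.91 FPKM in control ventricle, and 9.91 FPKM in DMVD and 7.11 FPKM in control valve, a called rise in the ventricle with a difference of -2.20 ± 0.65. WNT9B, a ligand, was higher in DMVD in both tissues, at 2.04 FPKM in DMVD and 0.153 FPKM in control ventricle, and 4.37 FPKM in DMVD and 0.197 FPKM in control valve, and called in the ventricle alone. None of the 18 genes passed in the difference.

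Smooth muscle and myofibroblast markers had 19 of 23 differences above 0, with medians of -0.12 and 0.22. The valve called 2 rises, ITGA8 and ACTG2, and the ventricle 1, TAGLN2, against 0.29% and 1.95% of all joined genes. ACTG2, the enteric smooth muscle actin, was at 16.03 FPKM in DMVD and 10.04 FPKM in control ventricle, and 47.1 FPKM in DMVD and 11.6 FPKM in control valve, a difference of 1.35 ± 0.65. ACTA2, the vascular smooth muscle actin used to mark myofibroblasts, was at 15.4 FPKM in DMVD and 14.1 FPKM in control ventricle, and 74.8 FPKM in DMVD and 31.6 FPKM in control valve, and MYH11, the smooth muscle myosin heavy chain, at 3.11 FPKM in DMVD and 4.405 FPKM in control ventricle, and 16.4 FPKM in DMVD and 7.13 FPKM in control valve. In these genes the DMVD valve was the highest group, but the ratios of ACTA2 and MYH11, 1.24 ± 0.54 and 1.20 ± 0.60 in the valve, were not called. MYH11 shares its listed locus with another gene. The list summed to 4549 FPKM in DMVD and 3511 FPKM in control valve, and 3707 and 2586 FPKM in the ventricle.

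Endothelial genes were higher in DMVD in the valve for 25 of 29 joined markers and in the ventricle for 21 (medians 0.81 and 0.32). The valve called 3 rises, against 0.29% of all joined genes. The ventricle called 5 rises and 1 fall, against 1.95% and 1.15% of all joined genes. The fall was APLNR, the apelin receptor, at 0.777 FPKM in DMVD and 7.15 FPKM in control ventricle, and 1.605 FPKM in DMVD and 3.65 FPKM in control valve. PROCR, the endothelial protein C receptor, was on the complement and coagulation list and was not one of the 29 markers. PROCR was at 4.95 FPKM in DMVD and 4.89 FPKM in control ventricle, and 55.9 FPKM in DMVD and 12.6 FPKM in control valve. It rose in the valve by 2.15 ± 0.55 and was level in the ventricle at 0.02 ± 0.59, but the difference of 2.14 ± 0.81 did not pass. MMRN2, a matrix protein of vessels, was at 6.84 FPKM in DMVD and 8.83 FPKM in control ventricle, and 19.1 FPKM in DMVD and 6.798 FPKM in control valve, and ENG, a TGF-beta co-receptor, at 28.9 FPKM in DMVD and 23.6 FPKM in control ventricle, and 85.7 FPKM in DMVD and 32.3 FPKM in control valve. EDN1, endothelin 1, was at 1.01 FPKM in DMVD and 0.9304 FPKM in control ventricle, and 7.198 FPKM in DMVD and 2.13 FPKM in control valve, not called in either tissue. EDNRB, an endothelin receptor, was at 14.1 FPKM in DMVD and 3.84 FPKM in control ventricle, and 6.79 FPKM in DMVD and 4.64 FPKM in control valve, a called rise in the ventricle with a difference of -1.32 ± 0.65.

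Lists for nerve and fat held no gene whose difference passed. Of 13 joined Schwann cell and neuronal markers 8 had a lower DMVD value in the ventricle and 6 in the valve, and the median difference was 0.48, or 0.06 with 1 FPKM added. The nerve growth factor receptor NGFR was at 0.326 FPKM in DMVD and 3.22 FPKM in control ventricle, and 2.44 FPKM in DMVD and 2.93 FPKM in control valve. The DMVD ventricle was the low group. NGFR fell in the ventricle by the authors' test, and its difference of 3.04 ± 1.08 (1.48 with 1 FPKM added) did not pass. PRPH, a neuronal intermediate filament, lay the other way, at 5.08 FPKM in DMVD and 0.7096 FPKM in control ventricle, and 8.42 FPKM in DMVD and 8.22 FPKM in control valve, with a difference of -2.81 ± 0.79 (-1.80 with 1 FPKM added). Fat cell genes were lower in DMVD in both tissues, with medians of -0.70 and -1.25 over 18 joined genes. PLIN1, which coats lipid droplets, was at 0.245 FPKM in DMVD and 5.44 FPKM in control ventricle, and 5.64 FPKM in DMVD and 24.8 FPKM in control valve, and GPD1, which makes glycerol phosphate, at 11.3 FPKM in DMVD and 51.2 FPKM in control ventricle, and 7.16 FPKM in DMVD and 30.4 FPKM in control valve. Both fell in the ventricle by the authors' test. The adipocyte list summed to 449.8 and 521 FPKM in DMVD and control ventricle and 377 and 552 FPKM in DMVD and control valve.

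Of 37 genes fixed for the study question, 25 were joined, and none of these but MT2 passed in the difference. COL3A1 was listed but tested in neither tissue, and 11 others, among them TGFB1, HTR2B, MMP2 and IL6, had no match by symbol and were not analysed here. MAOA, which breaks down serotonin, was at 11.6 FPKM in DMVD and 4.297 FPKM in control ventricle, and 21.8 FPKM in DMVD and 14.1 FPKM in control valve, a called rise in the ventricle with 0.62 ± 0.46 in the valve. NOS2, the inducible nitric oxide synthase, was at 0.0519 FPKM in DMVD and 1.13 FPKM in control ventricle, and 0.306 FPKM in DMVD and 0.866 FPKM in control valve, a called fall in the ventricle. SOX9, a factor of cartilage and valve primordia, was at 3.65 FPKM in DMVD and 1.21 FPKM in control ventricle, and 31.5 FPKM in DMVD and 30.7 FPKM in control valve, level in the valve and 1.59 ± 0.51 in the ventricle, not called.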

How the data were processed

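RNA of left ventricle and mitral valve was sequenced, per the labels, from fibrous-tissue extractions as TruSeq libraries on an Illumina instrument. Reads were handled with cutadapt, Bowtie and TopHat on the build CanFam3.1, per the submitters' processing notes, which give no versions. What computed the FPKM was not given in sources used here. There is 1 deposited table per tissue, and per the file headers each holds 1 value per group, read here as FPKM, with a test status. The log2 fold change deposited by the authors has control in the numerator and placeholders at 0, and was recomputed here. The deposited test statistic, a score with the sign of DMVD over control, comes with the authors' unadjusted p-value. No values per library were used, so the planned fits per library could not be made and the depth is unknown.

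Tables were joined by gene identifier. The SE in a tissue is the size of the log2 ratio divided by that of the statistic. The difference, valve minus ventricle, was tested against its SE (squared SEs of both tissues summed, then the root taken) by a two-sided normal approximation, adjusted by Benjamini-Hochberg over 13099 genes. Where FPKM was added, the SE of a tissue was scaled down. The factor was the root mean square, over both groups, of the value divided by the value with the addition. This treats both groups as having equal error, and calls made with added FPKM rest on it. Tissue calls used the authors' p-values adjusted over each table's tested genes (13788 and 14810), at 0.05. The difference test was tested on simulated data. P-values measure the authors' model error, not a spread between dogs that could be checked here, and nothing in the tables separates technical from biological variation.

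The 47 lists hold 1482 genes, of which 1151 matched a symbol and 918 were joined; 99 protein entry names were translated by hand. Lists were summarised by counts and medians. Named genes were the called differences and shared calls that had a symbol and averaged 5 FPKM or more over the groups, up to 4 genes of each list with the smallest p of the difference and up to 2 moving the same way in both tissues with the smallest p, and the 37 fixed genes. The members and lists were chosen with earlier results of these data known. Positions are those of the tables, counted from 1. Besides PTX3, SLC2A3, HAS2 and MYH11, the genes MYL4, PLN, IRX3, FZD8, MMRN2 and ENG share their listed locus with another gene. Their values are less certain for it. One called gene and a few list members are not reported here. No sequences are shown. Tools were scipy 1.17.1, pandas 2.3.3, numpy 2.4.6 and matplotlib 3.10.9 in Python 3.11.15. Alternatives were added FPKM, filters on low values, centring, other error assumptions, genes with their own locus, and genes of any status.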

Additional observations from a re-analysis of the deposited data

Results flagged for a closer look

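The disease effect passed the test of a difference between the tissues for 14 genes, of which 13 are given here. The difference of log2 ratios, valve minus ventricle, was -6.20 for Q8WN71_CANFA, -5.12 for MYL3, -4.52 for LYSC1_CANFA, -4.40 for SLC7A5, -4.37 for B0FF11_CANFA, -4.21 for MT2, -3.24 for STC1 and -3.17 for OTUD1. It was 3.27 for CSGALNACT1, 3.93 for CCDC85C, 4.51 for OLFML2A, 5.15 for ENSCAFG00000009014 and 6.61 for MYH13. In 6 of the 14 genes at least 1 group value was under 1 FPKM. No check for single samples far from their group was possible, since the tables hold group values.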

How the results depend on the processing

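The count of genes with a higher effect in the valve was 5; it was 3 with 1 FPKM added, 0 where all 4 values had to reach 1 FPKM, 79 with an error correlation of 0.5 and 0 with errors added linearly. The count with a lower effect was 9; it was 71 with an error correlation of 0.5 and 0 with errors added linearly. Genes called in both tissues in the same direction numbered 32, but 15 where all 4 values had to reach 1 FPKM and 16 among genes with a symbol and their own locus. No alternative gave a gene called in opposite directions. Of the 14 genes, 10 kept their call with 1 FPKM added, 14 with 0.1 FPKM added, 14 with each tissue centred on its median and 8 where all values had to reach 1 FPKM, which tests fewer genes. Among the other genes named, the difference changed sign with 1 FPKM added for TDRD1 (0.18), Q95159_CANFA (-1.30) and CLDN1 (0.50), and under no other alternative. The cause of each change was not tested, beyond the low values that an added FPKM pulls to 0. Of the 47 list medians of the difference, 10 moved by over 1.5 times or changed sign with 1 FPKM added, 3 with 0.1 FPKM added and 9 with centring. The Schwann list went from 0.48 to 0.06, the Wnt list from 0.97 to 0.53 and the metalloprotease list from 0.67 to 0.39 with 1 FPKM added, and the sign changed for the activin and TGF-beta list (-0.07 to 0.15) and the chondrogenic list (0.08 to -0.13). No paired analysis was possible because the tables hold 1 value per group; for the same reason the replicate block and leaving out each replicate were not run. Low values limit the test: the median SE of a difference was 1.30 for genes with a mean under 1 FPKM against 0.71 at 5 FPKM or more.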

Other observations

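Genes that were called in a tissue but could not enter the difference, because a group was listed at 0 or a tissue was not tested, numbered 18 in the ventricle and 9 in the valve. CA3, the carbonic anhydrase of slow muscle and fat, was called in both: it was listed at 0 in DMVD and at 3.70 FPKM in control ventricle, and at 3.83 and 27.3 FPKM in DMVD and control valve. HBM, an alpha-like globin, was at 15.9 and 0.188 FPKM in DMVD and control ventricle, and at 1.84 FPKM in DMVD valve and listed at 0 in control valve. FOSL1, an AP-1 subunit, was at 2.41 FPKM in DMVD ventricle and listed at 0 in control ventricle, and at 1.06 and 0.241 FPKM in the valve.

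Some of the valve's calls were in genes barely seen in the ventricle. REG3A, a secreted C-type lectin with antibacterial activity, was at 50.7 FPKM in DMVD and 3.63 FPKM in control valve, and at 0.312 and 0.0935 FPKM in the ventricle. COL6A5, a chain of collagen VI, was at 7.74 and 0.881 FPKM in the valve and at 0.108 and 0.175 FPKM in the ventricle. RELN, a secreted matrix glycoprotein, was at 3.98 and 0.861 FPKM in the valve and at 0.124 and 0.216 FPKM in the ventricle. Calls of the ventricle alone included MMP8, the neutrophil collagenase, at 1.48 and 0.00912 FPKM in DMVD and control ventricle, and CRHR1, a receptor for corticotropin-releasing hormone, listed at 0 in DMVD and at 3.76 FPKM in control ventricle. Whether the effect differed between the tissues was not tested for any of these genes, and they were chosen after their values were seen.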
